A study of Mus musculus with 8 samples.

Results

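Cadherins are calcium-dependent adhesion proteins, and catenins join their cytoplasmic tails to the actin cytoskeleton. The genes described here are the 35 of 19884 in the table whose symbol is Cdh or Cdhr followed by a digit, or which encode an alpha-, beta- or delta-catenin (Ctnna1, Ctnna2, Ctnna3, Ctnnal1, Ctnnb1, Ctnnd1 and Ctnnd2). The rule goes by name and uses no measured value. They fall into 5 type I cadherins, 13 type II cadherins, 5 other cadherins, 5 cadherin-related genes and 7 catenins.

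Adult wild-type C57BL/6J females, 6 to 10 weeks old, were mated with fertile males and received no treatment. Organs were taken on gestation day 4, with the plug counted as day 1, and blastocysts in the flush of the uterus showed which females were pregnant. Total RNA of whole maternal brain (4 libraries) was compared with total RNA of whole uterus (4 libraries), which asks how far the adhesion genes of the uterus before implantation are shared with the brain at that stage. Both organs came from pregnant animals, and no non-pregnant animal was used here.

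Classical cadherins bind the same or a related cadherin on the neighbouring cell through their outermost repeat, so the set of cadherins a cell carries helps decide which neighbours it adheres to. Inside the cell, p120-catenin (Ctnnd1) and its relative Ctnnd2 bind near the membrane, beta-catenin (Ctnnb1) binds the end of the tail, and an alpha-catenin bridges beta-catenin to actin. Beta-catenin that is not at junctions is the transcriptional effector of Wnt signalling. In the uterus, cadherin junctions hold the luminal and glandular epithelium together and are remodelled around implantation, while in the brain cadherins sort neurons into groups and sit at synapses.

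Brain libraries held 40115616 to 47790178 counts and uterus libraries 35394603 to 40254254. Levels are given as CPM, counts scaled to the library size after TMM normalization, in the order of libraries 1 to 4 of each organ, and folds are log2 of uterus over brain ± SE (n = 4 per organ), so that negative values mean higher in brain. The organs carried the markers of their labels. The summed level of 6 neuronal genes was 5906 to 6121 CPM in brain and 2.19 to 4.85 CPM in uterus, and that of 8 epithelial genes was 3.09 to 5.43 and 632 to 813 CPM. The uterus was also the higher organ for all 6 smooth muscle genes (6019 to 7247 CPM summed in uterus, 45.3 to 56.1 in brain) and all 6 stromal genes (8955 to 11000.4 and 120.5 to 125 CPM). The marker with the largest difference in each list was Cldn4 for epithelium (10.13 ± 0.29), Emcn for endothelium (3.51 ± 0.08), Actg2 for smooth muscle (11.64 ± 0.20) and Hoxa10 for stroma (13.71 ± 0.23), all higher in uterus. In brain it was Nefl for neurons (-12.55 ± 0.23), Aqp4 for astrocytes (-12.33 ± 0.25, or -13.72 without uterus library 4), Mag for oligodendrocytes (-8.80 ± 0.15), Kl for choroid plexus (-9.35 ± 0.24) and Aanat for the pineal (-3.03 ± 0.41). In whole organs, fewer cells of a type and less RNA per cell cannot be told apart.

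Most members differed between the organs, and mostly toward the brain. Of the 35 members, 32 passed the filter on low counts. The edgeR quasi-likelihood test called 30 of these 32 at an adjusted p of 0.05, with 8 higher in uterus and 22 higher in brain. Calls were frequent among all 16074 genes tested, of which 87.0% were called, 43.5% as higher in uterus and 43.6% as higher in brain. That even split depended on the scaling, since 57.8% of all calls were higher in uterus with upper-quartile scaling and 57.9% with library size alone, where 9 members were higher in uterus and 20 in brain. Against a change of 2-fold, 26 members were called, 6 higher in uterus and 20 higher in brain, where 49.3% of all genes were called (23.5% and 25.8% by direction). The libraries of the organs did not overlap for 28 members, 8 with uterus above and 20 with brain above, and 84.1% of all genes had no overlap (42.0% in each direction). The median difference was -3.51 on the log2 scale over the 32 members and 0.01 over all genes. In the plot of members by library the brain points of most type II cadherins lie far to the right of the uterus points, whereas Cdh1, Cdh3, Cdh5 and Cdh11 lie the other way round.

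**Figure D1:**
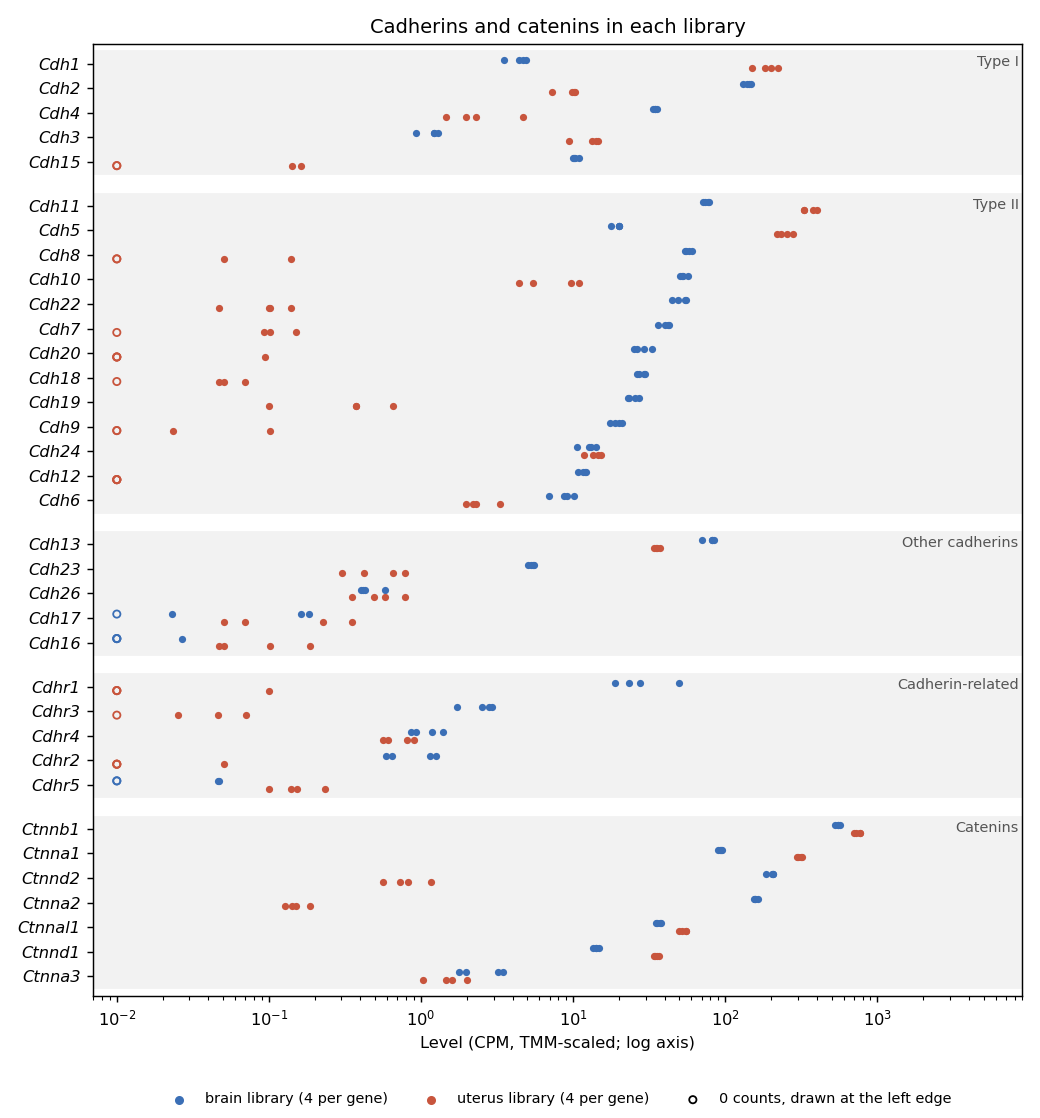
Level of each member in CPM (log axis) in the 4 brain libraries (blue) and the 4 uterus libraries (red), 1 point per library, grouped by class, with open circles at the left edge for libraries with 0 counts. Ctnnb1 stands at 530.0 to 567 CPM in brain and 704 to 764 CPM in uterus, while Ctnna2 and Ctnnd2 are at 155 CPM or more in each brain library and 1.17 CPM or less in each uterus library.

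More of the family was measurable in brain. A level of 1 CPM was reached by 28 members in every brain library, by 15 in every uterus library and by 14 in all 8. Of the rest, 11 members were at 1 CPM or more in every brain library and under 0.5 CPM in every uterus library. The matching shares of all genes were not computed, so whether the family differs from other genes here was not tested.

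The type I cadherins separated the organs into an epithelial and a neural set, with 2 of 5 higher in uterus and 3 higher in brain. Cdh1 (ENSMUSG00000000303, chr8:106603351-106670246, GRCm38), E-cadherin of epithelial junctions, was at 4.43, 3.50, 4.69 and 4.90 CPM in the brain libraries and 183, 151, 199 and 223 CPM in the uterus libraries. Every uterus library lay far above every brain library. Cdh1 was 43.2-fold higher in uterus (5.43 ± 0.15, adjusted p = 2.25e-10, edgeR quasi-likelihood test). Within brain the lowest Cdh1 value was in library 2, where the summed level of 4 choroid plexus genes was lowest as well (908, 676, 929.9 and 922 CPM in libraries 1 to 4). Ttr gave most of that sum (846, 613, 863 and 844 CPM). Kl and Folr1 were also lowest in library 2, but Prlr was not (19.6, 27.9, 18.9 and 28.9 CPM). The relation of Cdh1 to the sum was not tested. Cdh3, P-cadherin, which many epithelia and the placenta carry, was at 1.21, 1.29, 1.22 and 0.922 CPM in brain and 13.3, 14.6, 14.2 and 9.35 CPM in uterus. It was 11.04-fold higher in uterus (3.46 ± 0.18, adjusted p = 3e-08, edgeR), with no overlap.

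Uterus library 4 had the highest Cdh1 value and the lowest Cdh3 value. Its summed epithelial level was the highest as well, at 632, 714, 689 and 813 CPM in libraries 1 to 4, and Epcam, which encodes an epithelial surface protein, was at 104, 114, 123 and 121 CPM. Cdh1 was lowest in library 2, where neither the epithelial sum nor Epcam was lowest.

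Cdh2 (ENSMUSG00000024304, chr18:16588877-16809246), N-cadherin of neurons and mesenchyme, showed the reverse pattern. It was at 147, 139, 130.2 and 143 CPM in brain and 9.84, 10.3, 10.1 and 7.25 CPM in uterus, and was 14.9-fold higher in brain (-3.90 ± 0.11, adjusted p = 2.29e-10, edgeR). Cdh2 was nonetheless present in every uterus library. Cdh4, R-cadherin, first described in retina, was at 34.4, 34.4, 35.5 and 33.6 CPM in brain and 1.99, 1.46, 2.31 and 4.68 CPM in uterus (-3.72 ± 0.29, adjusted p = 6.87e-07, edgeR). Among the uterus libraries Cdh4 was highest in library 4, as was the summed neuronal level (2.19, 2.75, 2.81 and 4.85 CPM in libraries 1 to 4). Snap25, Syt1, Slc17a7 and Gad1 of that list were highest in library 4. Rbfox3 was lowest there (1.01, 1.67, 1.75 and 0.932 CPM), and Nefl was highest in library 3. The relation of Cdh4 to the sum was not tested.

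Cdh15 is M-cadherin, known from skeletal muscle and from granule cells of the cerebellum. It was at 9.98, 10.3, 10.2 and 10.9 CPM in brain and 0, 0.141, 0 and 0.163 CPM in uterus (-6.99 ± 0.46, adjusted p = 1.6e-07, edgeR), and the difference was -7.62 without uterus library 4. Of the skeletal muscle genes, Acta1 was at 5.02 ± 0.879 CPM in brain and 119 ± 31.2 CPM in uterus (SD, n = 4) and Ckm at 0.117 ± 0.0609 and 0.648 ± 0.251 CPM, both higher in uterus (4.56 ± 0.20 and 2.46 ± 0.45, adjusted p = 6.88e-09 and 0.000415, edgeR). Myod1 and Myf5, which define the muscle lineage, did not pass the filter, with 14 and 2 counts over the brain libraries and 0 and 4 over the uterus libraries. Cdh15 was low in the organ with more Acta1 and Ckm, while the few Myod1 counts were all in brain. The relation of Cdh15 to these genes was not tested.

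Measured per length, the make-up of the type I class was turned around. Levels of different genes are compared as TPM, counts per kilobase of annotated exon scaled to the same total in each library. Cdh1 made up 3.55, 2.93, 4.02 and 3.97% of the type I TPM in the brain libraries and 89.9, 87.2, 90.04 and 92.9% in the uterus libraries, or 3.62 ± 0.507% and 90.00 ± 2.32% (SD, n = 4). Cdh2 made up 66.7, 65.8, 63.4 and 65.6% in brain and 2.73, 3.35, 2.60 and 1.71% in uterus, or 65.4 ± 1.41% and 2.60 ± 0.676%. Both shares separated the organs without overlap (exact permutation test over the 8 libraries, two-sided p = 0.0286, adjusted p = 0.0286 over 8 shares and ratios, the smallest p that 4 against 4 libraries allow). In brain, Cdh4 held 17.97 ± 0.904% and Cdh15 12.04 ± 0.538% of the class, and in uterus Cdh3 held 6.59 ± 1.94%. The summed type I level was 95.04 ± 6.65 TPM in brain and 164 ± 19.2 TPM in uterus.

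**Figure D2:**
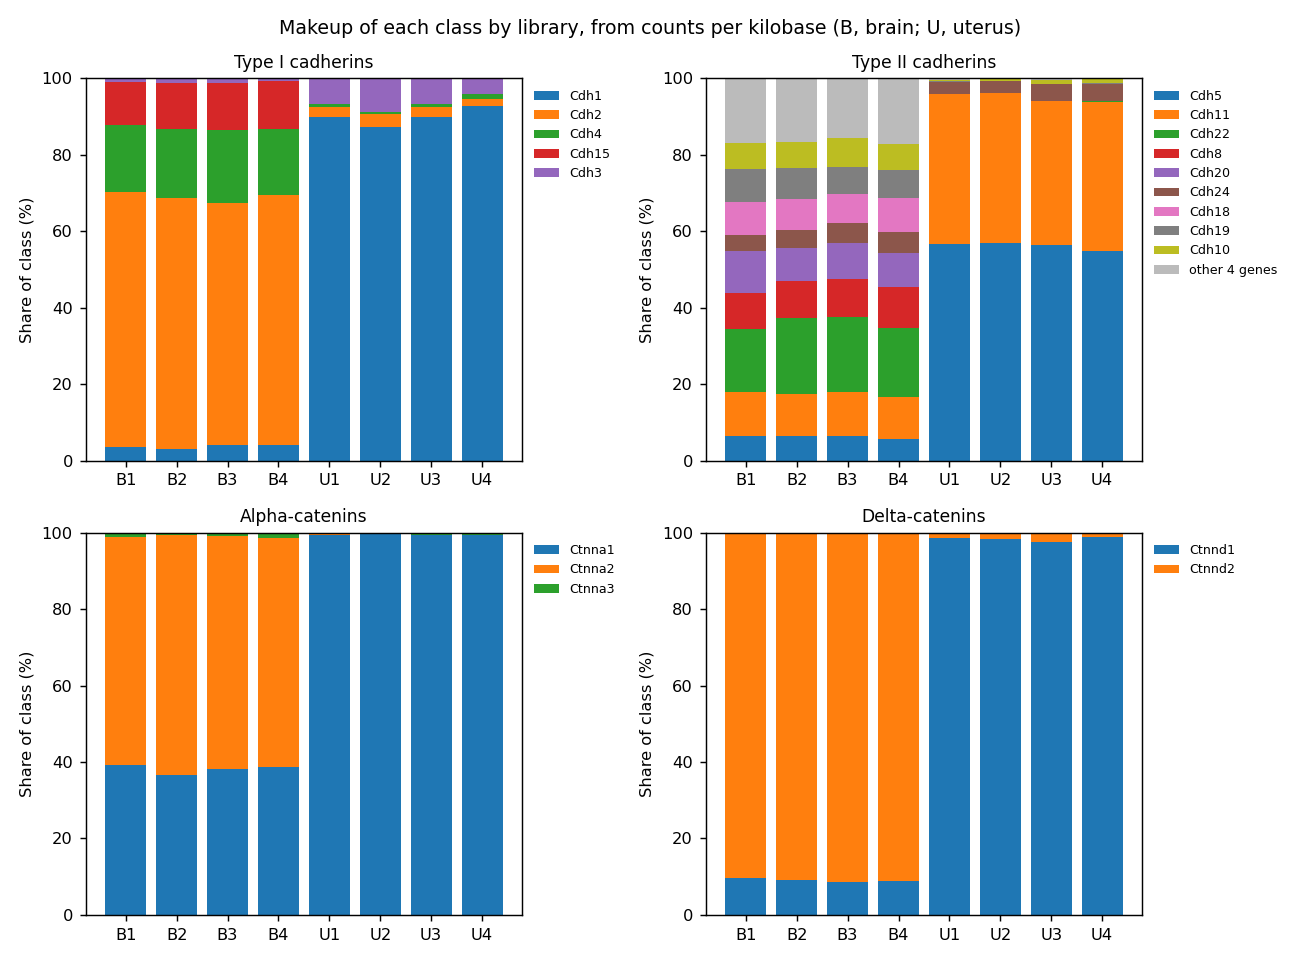
Stacked bars of the share of each gene in its class, in percent of counts per kilobase, with 1 bar per library (B1 to B4 brain, U1 to U4 uterus) and a panel each for type I cadherins, type II cadherins, alpha-catenins and delta-catenins. Cdh2, Cdh4 and Cdh15 fill most of the type I bars in brain and Cdh1 fills 87.2% to 92.9% of them in uterus, Cdh5 and Cdh11 fill most of the type II bars in uterus, and Ctnna2 and Ctnnd2 almost vanish from the uterus bars.

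Of the 13 type II cadherins, 2 were higher in uterus, 10 were higher in brain and 1 was not called, with a median of -8.83, which did not change when Cdh12 was set at its bound. Cdh5 (ENSMUSG00000031871, chr8:104101625-104144511), VE-cadherin of endothelial junctions, was at 20.2, 19.99, 19.9 and 17.7 CPM in brain and 277, 256, 233 and 219 CPM in uterus. The difference was 12.7-fold (3.66 ± 0.09, adjusted p = 7.93e-11, edgeR), with no overlap. All 7 other endothelial genes examined were also higher in uterus, with a median of 2.88, and their summed level was 159, 138, 142 and 131 CPM in brain and 999, 1070.4, 985 and 904 CPM in uterus. Cdh5 and this sum were both lowest in library 4 of each organ. Kdr of that list was instead lowest in library 2 of both organs, and Tek in library 2 of brain. The remaining genes of the list were lowest in library 4 of each organ. The relation of Cdh5 to the sum was not tested.

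Cdh11 (ENSMUSG00000031673, chr8:102632095-102785642), OB-cadherin of mesenchymal cells, was abundant in both organs. It was at 76.5, 73.2, 78.3 and 71.9 CPM in brain and 404, 376, 329 and 330.2 CPM in uterus, a 4.80-fold difference (2.26 ± 0.08, adjusted p = 1.02e-09, edgeR). In uterus, Cdh5 made up 56.2 ± 0.921% of the type II TPM and Cdh11 38.8 ± 0.753%, against 6.22 ± 0.329% and 11.3 ± 0.360% in brain (each exact permutation p = 0.0286, two-sided, adjusted 0.0286). Which of the pair ranked first in uterus depended on the length used, since Cdh5 and Cdh11 took 39.04% and 57.01% of the class in counts without a length term, and 46.7% and 48.3% per kilobase of the longest transcript.

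The type II cadherins of neural circuits were close to the counting limit in uterus. A library with no count still allows up to 3 counts, which is 0.0699 to 0.0761 CPM in uterus, and this limit covers counting error only. Cdh8, which sorts synaptic partners in several circuits, was at 54.6, 55.5, 57.97 and 60.2 CPM in brain and 0, 0, 0.0507 and 0.140 CPM in uterus (-10.11 ± 0.28, adjusted p = 2.23e-10, edgeR), or -11.50 without uterus library 4. Cdh22 was at 44.98, 55.04, 54.1 and 49.1 CPM in brain and 0.101, 0.0470, 0.101 and 0.140 CPM in uterus (-8.99 ± 0.17, adjusted p = 1.66e-11, edgeR). Both were among the best measured brain members, and no uterus library exceeded 0.14 CPM for either.

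Cdh7 was at 42.4, 36.04, 40.2 and 42.3 CPM in brain and 0.151, 0, 0.101 and 0.0932 CPM in uterus (-8.83 ± 0.26, adjusted p = 3.67e-10, edgeR). Cdh18 was at 29.3, 27.3, 26.3 and 29.9 CPM in brain and 0.0503, 0.0470, 0 and 0.0699 CPM in uterus (-9.27 ± 0.24, adjusted p = 1.16e-10, edgeR). In brain the highest value of Cdh7 was 1.18 times its lowest, and that of Cdh18 was 1.14 times its lowest. Cdh20 was at 33.1, 25.3, 29.1 and 26.4 CPM in brain and 0, 0.0940, 0 and 0 CPM in uterus (-10.03 ± 0.39, adjusted p = 2.11e-09, edgeR). Its 4 uterus counts were all in library 2, and without that library the difference was -13.19. Cdh9, known from synapses of hippocampal mossy fibres, was at 18.8, 20.9, 17.5 and 19.9 CPM in brain and 0, 0.0235, 0.101 and 0 CPM in uterus (-9.17 ± 0.37, adjusted p = 2.91e-09, edgeR), or -10.77 without uterus library 3. For folds that rest on so few uterus counts the SE can be too small.

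Cdh12 was at 11.5, 12.01, 12.2 and 10.7 CPM in brain and had no count in any uterus library. With 1931 brain counts against a limit of 3 counts over the 4 uterus libraries, it was at least 638-fold higher in brain (adjusted p = 1.84e-08, edgeR). It was the only gene of the 35 members with no count in an organ.

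Cdh19 is known from the Schwann cell lineage and other glia. It was at 27.04, 25.5, 23.1 and 23.2 CPM in brain and 0.101, 0.376, 0.659 and 0.373 CPM in uterus (-6.02 ± 0.30, adjusted p = 1.59e-08, edgeR). Of the Schwann cell markers, Sox10 was at 50.2 ± 2.92 and 0.189 ± 0.0974 CPM, lower in uterus like Cdh19, whereas Prx was at 2.23 ± 0.445 and 6.95 ± 0.332 CPM (1.64 ± 0.16, adjusted p = 3.12e-06, edgeR).

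A pair of type II genes higher in brain kept a measurable level in uterus. Cdh10 was at 52.5, 51.8, 57.1 and 50.3 CPM in brain and 5.49, 4.40, 10.9 and 9.63 CPM in uterus (-2.80 ± 0.25, adjusted p = 1.94e-06, edgeR). Its uterus level was well above the counting limit in all libraries and was higher in libraries 3 and 4 than in 1 and 2. The summed neuronal level in the same libraries was 2.19, 2.75, 2.81 and 4.85 CPM, against 5906 to 6121 CPM in brain. The relation of Cdh10 to the sum was not tested. Cdh6, K-cadherin, averaged 8.74 ± 1.36 CPM in brain and 2.44 ± 0.602 CPM in uterus (SD, n = 4, -1.84 ± 0.19, adjusted p = 6.45e-06, edgeR).

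Cdh24 was the type II member without a call. It was at 10.6, 12.7, 13.2 and 14.1 CPM in brain and 13.4, 11.8, 14.6 and 15.2 CPM in uterus, and the libraries overlapped. The difference was 0.12 ± 0.12 (adjusted p = 0.339, edgeR), with a limma-voom 95% interval of -0.14 to 0.36. With upper-quartile scaling or library size alone it was called as higher in uterus (0.38 in both, adjusted p = 0.01 and 0.00892, edgeR). Those scalings moved the median of all genes from 0.01 to 0.27.

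Among the other cadherins, 3 passed the filter, of which 2 were higher in brain and 1 was not called. Cdh13, T-cadherin, is held at the membrane by a lipid anchor and lacks the tail that binds catenins. It was at 70.5, 81.6, 81.7 and 84.7 CPM in brain and 35.7, 34.8, 37.2 and 34.1 CPM in uterus, and was 2.25-fold higher in brain (-1.17 ± 0.07, adjusted p = 4.36e-08, edgeR). Its libraries did not overlap, and in uterus it varied little between animals. Cdh23, which forms the tip links of hair cells, averaged 5.33 ± 0.212 CPM in brain and 0.541 ± 0.217 CPM in uterus (-3.30 ± 0.26, adjusted p = 6.31e-07, edgeR).

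Cdh26 was low in both organs, at 0.405, 0.415, 0.577 and 0.426 CPM in brain and 0.579, 0.494, 0.786 and 0.350 CPM in uterus. It was not called (0.27 ± 0.30, adjusted p = 0.419, edgeR), and the limma-voom 95% interval ran from -0.52 to 0.94. Cdh16, the kidney cadherin, had 16 counts over the uterus libraries and 1 count over the brain libraries, a ratio of 16.1 with an exact Poisson 95% interval of 2.51 to 677. Cdh17, the intestinal cadherin, had 29 uterus counts and 15 brain counts, and its libraries overlapped. Neither of these 2 genes passed the filter.

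The cadherin-related genes share the extracellular repeats but not the classical tail. All 4 that passed the filter were called as higher in brain. Cdhr1, known from photoreceptor outer segments and from the olfactory bulb, was at 49.4, 27.4, 18.7 and 23.2 CPM in brain and 0.101, 0, 0 and 0 CPM in uterus. Brain library 1 was above the other 3, and the highest brain value was 2.64 times the lowest, but all lay above the uterus. The difference was -10.08 ± 0.63 (adjusted p = 9.09e-08, edgeR), or -13.26 without uterus library 1, which held all 4 uterus counts. Of 3 genes of olfactory bulb projection neurons, chosen after the Cdhr1 values were seen, Doc2g was at 9.88, 6.11, 5.04 and 5.89 CPM, Tbx21 at 2.05, 0.876, 0.808 and 0.733 CPM and Eomes at 14.7, 15.4, 10.6 and 12.8 CPM in brain. Their sum was highest in library 1 and lowest in library 3 (26.6, 22.4, 16.4 and 19.5 CPM), the order of Cdhr1 at its ends, whereas 4 photoreceptor and pineal genes summed to 2.37, 2.61, 2.98 and 2.27 CPM. The relation was not tested, and Tbx21 was higher in uterus than in brain (1.12 ± 0.35, adjusted p = 0.0119, edgeR).

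Cdhr3, found in ciliated cells, averaged 2.49 ± 0.540 CPM in brain and 0.0356 CPM in uterus (-5.98 ± 0.45, adjusted p = 4.31e-07, edgeR). Its lowest brain value, 1.73 CPM, was in library 2, where the summed choroid plexus level was lowest, though Prlr of that list was not. The relation was not tested. Cdhr2, which links the tips of microvilli, had 153 brain counts and 2 uterus counts, both in library 3, a ratio of 75.9 with an exact Poisson 95% interval of 20.6 to 632 (adjusted p = 1.78e-05, edgeR). Its partner in that link, Cdhr5, did not pass the filter and averaged 0.0234 CPM in brain and 0.157 CPM in uterus.

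Cdhr4 averaged 1.09 ± 0.249 CPM in brain and 0.717 ± 0.159 CPM in uterus, with overlapping libraries (-0.60 ± 0.26, adjusted p = 0.0485, edgeR). That call was lost under most alternatives, with a block for replicate number among them (-0.60, adjusted p = 0.112, edgeR). Cdhr4 also shares 18.5% of its exon bases with Gm20661 and 28.8% with Gm20662 on the same strand, so its count is uncertain.

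**Figure D3:**
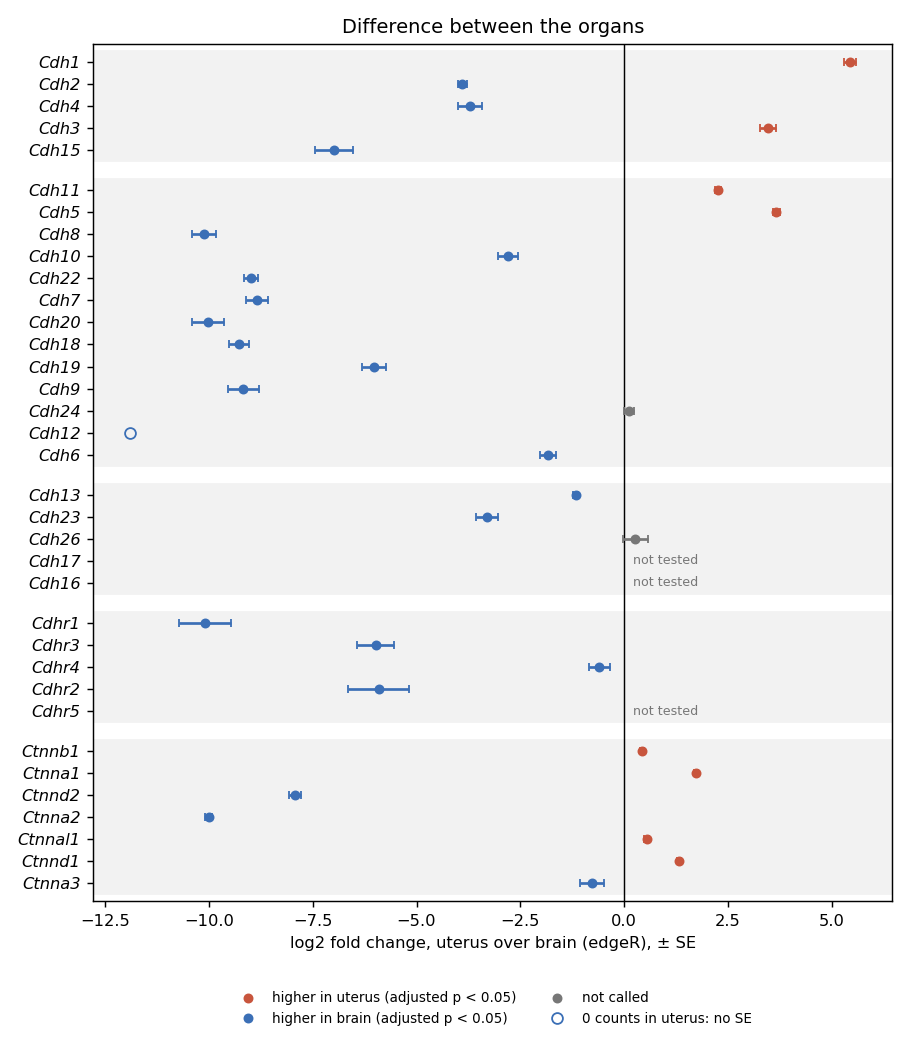
Log2 fold change of uterus over brain from edgeR for each tested member, with error bars of 1 SE, in red where higher in uterus, blue where higher in brain and grey where not called. Cdh1 lies farthest to the right at 5.43, Cdh8, Cdh20, Cdhr1 and Ctnna2 lie at -10.00 or further to the left, and the open circle of Cdh12, which had 0 uterus counts, is a fitted value that is no bound.

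The catenins divided by isoform. Of 7, 4 were higher in uterus and 3 higher in brain, with a median of 0.43, and against a change of 2-fold 2 were called in each direction. Beta-catenin, Ctnnb1 (ENSMUSG00000006932, chr9:120929216-120960507), was the most abundant member in both organs. It was at 530.0, 551, 552 and 567 CPM in brain and 764, 728, 704 and 764 CPM in uterus. The uterus libraries lay above the brain libraries without overlap, by 1.35-fold (0.43 ± 0.05, adjusted p = 2.66e-05, edgeR), and the test against a 2-fold change did not call it. On the opposite strand Ulk4 overlaps 14.6% of its exon bases, and Ulk4 was at 5.18 ± 0.395 CPM in brain and 5.40 ± 0.535 CPM in uterus.

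The epithelial and the neural alpha-catenin were higher in opposite organs. Ctnna1 (ENSMUSG00000037815, chr18:35118859-35254779), alpha-E-catenin, was at 94.9, 89.1, 91.9 and 93.4 CPM in brain and 313, 297, 301 and 321 CPM in uterus (1.74 ± 0.05, adjusted p = 2.11e-10, edgeR). Ctnna2 (ENSMUSG00000063063, chr6:76881637-77979699), alpha-N-catenin, was at 155, 164, 158 and 156 CPM in brain and 0.151, 0.141, 0.127 and 0.186 CPM in uterus (-10.00 ± 0.08, adjusted p = 1.13e-12, edgeR). Ctnna1 was thus present in both organs, while Ctnna2 was almost only counted in brain. Of the summed TPM of Ctnna1, Ctnna2 and Ctnna3, Ctnna2 made up 60.8 ± 1.38% in brain and 0.0451 ± 0.00609% in uterus (exact permutation p = 0.0286, two-sided, adjusted 0.0286), and Ctnna1 38.3 ± 1.12% and 99.5 ± 0.105%.

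Ctnna3, alpha-T-catenin, best known from heart muscle, was at 3.21, 1.78, 1.99 and 3.45 CPM in brain and 1.46, 1.03, 1.60 and 2.004 CPM in uterus, with overlap between the organs. The difference was -0.77 ± 0.28 (adjusted p = 0.0265, edgeR). It lost its call without brain library 1 (-0.65), brain library 4 (-0.61), uterus library 1 (-0.73) or uterus library 2 (-0.62), and with upper-quartile scaling or library size alone (-0.52 in both). Ctnnal1, alpha-catulin, a more distant relative, was at 38.02, 34.9, 35.5 and 37.2 CPM in brain and 55.5, 49.96, 51.7 and 55.05 CPM in uterus. It was 1.46-fold higher in uterus (0.54 ± 0.06, adjusted p = 5.27e-06, edgeR), with no overlap, and was not called against 2-fold.

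The delta-catenins were divided in the same way. Ctnnd1 (ENSMUSG00000034101, chr2:84600071-84650765), p120-catenin, which keeps cadherins at the surface, was at 14.1, 14.7, 13.5 and 14.05 CPM in brain and 34.4, 35.4, 34.1 and 36.6 CPM in uterus (1.32 ± 0.06, adjusted p = 6.34e-09, edgeR). Ctnnd2 (ENSMUSG00000022240, chr15:30172593-31029341), the neural delta-catenin, was at 187, 205, 205 and 205 CPM in brain and 0.730, 0.823, 1.17 and 0.559 CPM in uterus (-7.94 ± 0.14, adjusted p = 1.49e-11, edgeR). No library of either gene crossed into the other organ's range. The Ctnnd1 level is uncertain, because 61.2% of its exon bases lie on the same strand in the overlapping gene Gm28635. Gm28635 is not among the genes with deposited counts, so where reads of the shared bases were counted is not known. Ctnnd2 made up 90.97 ± 0.487% of the TPM of the pair in brain and 1.64 ± 0.543% in uterus (exact permutation p = 0.0286, two-sided, adjusted 0.0286), or 79.6% and 0.641% when the length of Ctnnd1 was counted outside Gm28635.

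Promoter sequences show how unlike the start sites of these genes are. RefSeq promoters (GRCm38.p6, 250 bases before to 50 after the start) matched 24 of the 35 members by symbol, and Cdh1, Cdh2, Cdh3, Cdh4, Cdh5, Cdh11, Cdh13, Cdh16, Cdh17, Cdh19 and Ctnna1 had no match, so that 5 of the 8 members higher in uterus are not in the counts given here. The catenin shared by both organs and the alpha-catenin of the brain are shown with a pair of type II cadherins of the brain, 5′ to 3′ on the strand of the gene, with each CG dinucleotide in capitals. They are Ctnnb1 at chr9:120933150-120933449 (plus strand), Ctnna2 at chr6:77979618-77979917 (minus strand), Cdh8 at chr8:99416422-99416721 (minus strand) and Cdh9 at chr15:16728665-16728964 (plus strand). The Ctnnb1 window lies inside the annotated span of the gene, downstream of its outermost start.
Ctnnb1: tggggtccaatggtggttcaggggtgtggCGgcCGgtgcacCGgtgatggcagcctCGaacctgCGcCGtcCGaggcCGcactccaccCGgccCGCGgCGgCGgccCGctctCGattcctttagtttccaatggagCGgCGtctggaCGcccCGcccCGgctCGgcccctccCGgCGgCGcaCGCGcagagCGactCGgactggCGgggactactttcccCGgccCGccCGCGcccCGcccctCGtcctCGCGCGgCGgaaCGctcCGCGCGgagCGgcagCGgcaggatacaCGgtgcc
Ctnna2: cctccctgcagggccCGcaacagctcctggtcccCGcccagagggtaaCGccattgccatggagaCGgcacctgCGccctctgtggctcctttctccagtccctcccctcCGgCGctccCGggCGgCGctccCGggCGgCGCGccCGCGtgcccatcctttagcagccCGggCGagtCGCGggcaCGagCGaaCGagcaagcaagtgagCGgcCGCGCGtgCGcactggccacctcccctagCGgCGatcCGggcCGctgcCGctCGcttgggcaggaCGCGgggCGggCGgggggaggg
Cdh8: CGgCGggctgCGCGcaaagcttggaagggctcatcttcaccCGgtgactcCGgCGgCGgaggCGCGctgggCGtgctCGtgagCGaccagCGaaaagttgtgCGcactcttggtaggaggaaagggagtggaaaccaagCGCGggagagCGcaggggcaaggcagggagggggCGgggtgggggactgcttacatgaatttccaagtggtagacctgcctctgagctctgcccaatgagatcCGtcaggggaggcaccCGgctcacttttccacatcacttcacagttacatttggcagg
Cdh9: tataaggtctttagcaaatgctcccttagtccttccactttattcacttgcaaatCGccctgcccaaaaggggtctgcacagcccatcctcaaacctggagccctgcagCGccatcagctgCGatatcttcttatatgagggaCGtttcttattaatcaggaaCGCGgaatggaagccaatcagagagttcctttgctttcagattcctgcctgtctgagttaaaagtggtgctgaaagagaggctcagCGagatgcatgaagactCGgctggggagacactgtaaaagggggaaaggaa
The Ctnnb1 promoter shown held 46 CG dinucleotides, a number that 1.65% of the 32851 promoters of the same length reached. A second Ctnnb1 entry, at chr9:120933328-120933627, overlaps it and held 51 (0.715%). Ctnna2 held 38 (4.95% reached as many), Cdh8 held 21 (24.8%) and Cdh9 held 8 (48.6%). The 3 genes counted almost only in brain thus differed in CG content. Over the 30 promoter entries of members the median was 9, and over all promoters it was 7. The letters CAGGTG, or CACCTG on the other strand, a word that Snail and Zeb repressors are known to bind, were found in 7 of the 30 entries (23.3%), from 5 members, and in 20.2% of all promoters. A match is a description of the letters and not a binding site.

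Ranked by TPM, the members formed different orders in the organs. In brain Ctnnb1 led at 380.1 ± 17.2 TPM (SD, n = 4), followed by Ctnna2 at 81.8 ± 1.79, Ctnnd2 at 69.6 ± 2.56, Cdh2 at 62.2 ± 5.34, Ctnna1 at 51.6 ± 3.62, Cdh22 at 49.1 ± 2.61 and Cdh11 at 30.2 ± 1.85 TPM. The brain libraries of Ctnnd2 and Cdh2 overlapped, as did those of Ctnna1 and Cdh22, and from Cdh11 down to Cdh15 at 11.4 ± 0.708 TPM each gene overlapped with the next. In uterus Ctnnb1 led at 512 ± 15.5 TPM, followed by Cdh5 at 211 ± 23.3, Ctnna1 at 172 ± 4.92, Cdh1 at 148 ± 20.3 and Cdh11 at 145 ± 15.02 TPM. The uterus libraries of Ctnna1 and Cdh1 overlapped, and so did those of Cdh1 and Cdh11. After Cdh11 the uterus order dropped to Ctnnal1 at 24.9 ± 0.247 TPM, and 6 members lay between that level and Cdh4 at 1.28 ± 0.656 TPM.

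Beta-catenin and its partners were also set against each other within each library. The summed type I and II cadherins were at 362 ± 17.2 TPM in brain and 539 ± 20.7 TPM in uterus, and the catenins at 608 ± 25.3 and 728 ± 20.3 TPM. Per TPM of type I and II cadherin, Ctnnb1 was at 1.05 ± 0.0343 in brain and 0.951 ± 0.0385 in uterus (exact permutation p = 0.0286, two-sided, adjusted 0.0286). That order does not hold under other lengths, since the difference of uterus minus brain moved from -0.0998 to -0.0117 in counts without a length term (exact permutation p = 0.629) and to 0.0593 per kilobase of the longest transcript (exact permutation p = 0.143). Ctnnd1 plus Ctnnd2 was at 0.212 ± 0.00988 per TPM of these cadherins in brain and 0.0326 ± 0.00211 in uterus (exact permutation p = 0.0286, two-sided, adjusted 0.0286). With the length of Ctnnd1 outside Gm28635 the values were 0.242 and 0.0833.

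In the genome, 8 members lie on chromosome 8 and 6 on chromosome 15. Those on chromosome 15 (Cdh6, Cdh9, Cdh10, Cdh12, Cdh18 and Ctnnd2) were all higher in brain, as were 22 of the 30 members called. On chromosome 8, Cdh1, Cdh3, Cdh5 and Cdh11 were higher in uterus, Cdh8, Cdh13 and Cdh15 were higher in brain, and Cdh16 was not tested. Cdh3 and Cdh1 are neighbours there, 46.1 kb apart. All 3 members on chromosome 1 (Cdh20, Cdh7 and Cdh19) were higher in brain. Members higher in brain had a median gene span of 208 kb (7.19 to 1574 kb, n = 22), and those higher in uterus one of 52.5 kb (31.3 to 154 kb, n = 8). Spans of all genes called in each direction were not computed, so whether this is particular to the family was not tested.

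Spread between animals differed by member. Among the 30 members averaging 1 CPM or more in brain, the coefficient of variation over the 4 libraries ran from 2.26% to 45.8% with a median of 5.98%. Cdh4 was the steadiest there, and Cdhr1 varied most, followed by Ctnna3 at 32.5%. Among the 15 such members in uterus it ran from 3.30% (Ctnnd1) to 54.7% (Cdh4), with a median of 10.99%. Cdh4 was thus the steadiest member in brain and the most variable in uterus, where its level was lower. Cdh10 at 41.5%, Ctnna3 at 26.2%, Cdh6 at 24.7%, Cdh3 at 18.7% and Cdh1 at 15.9% came next in uterus.

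**Figure D4:**
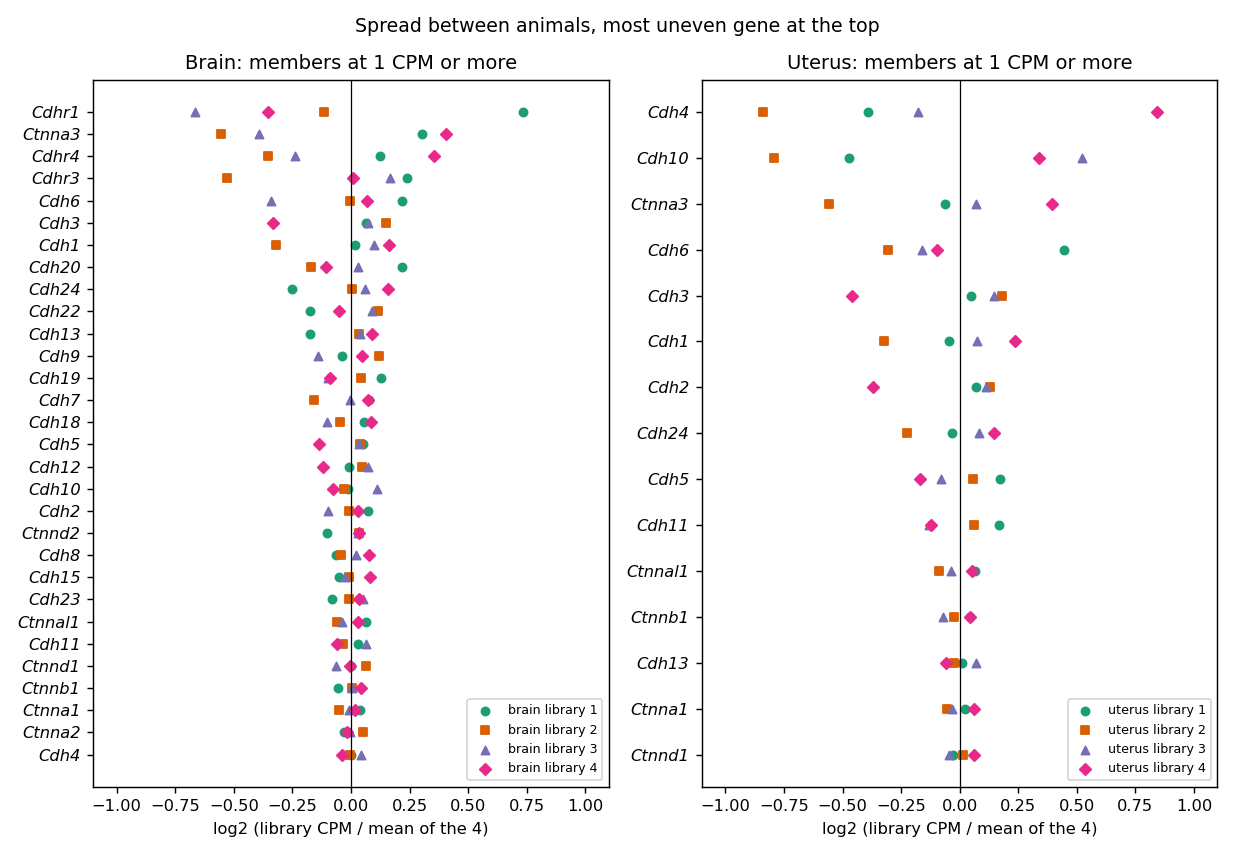
Log2 of the CPM of each library over the mean of the 4 libraries of its organ, for members averaging 1 CPM or more, with 1 symbol per library and the most uneven gene at the top. Brain library 1 stands apart to the right for Cdhr1, and uterus library 4 is highest for Cdh4 and lowest for Cdh3 and Cdh2.

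Other genes of the cadherin and beta-catenin pathway were divided between the organs in most lists, as were all genes tested (43.5% higher in uterus and 43.6% higher in brain). Of 12 junction partners, 5 were higher in uterus, 6 higher in brain and 1 (Afdn, listed as Mllt4) was not called, with a median of -0.15 that became 0.11 with upper-quartile scaling or library size alone, where Afdn was called as higher in uterus and Jup, the relative of beta-catenin, lost its call as higher in brain. Nectins begin the contacts that cadherins then strengthen. Nectin2 was 11.6-fold higher in uterus, at 5.88 ± 0.373 CPM in brain and 67.9 ± 3.81 CPM in uterus (3.53 ± 0.07, adjusted p = 2.75e-11, edgeR). Nectin1 was higher in brain, at 50.6 ± 2.29 and 12.02 ± 1.21 CPM (-2.07 ± 0.08, adjusted p = 2.29e-09, edgeR).

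The complex that marks free beta-catenin for destruction had 4 of 9 genes higher in uterus and 5 higher in brain, with a median of -1.27. Apc2, the neural relative of Apc, was at 197 ± 15.1 CPM in brain and 3.20 ± 0.552 CPM in uterus (-5.94 ± 0.12, adjusted p = 2.67e-11, edgeR). Amer1, which recruits the complex to the membrane, was at 19.4 ± 2.43 and 52.7 ± 3.22 CPM (1.45 ± 0.09, adjusted p = 1.23e-07, edgeR). Of 8 partners of beta-catenin in the nucleus, 4 were higher in uterus, 2 higher in brain and 2 (Bcl9 and Bcl9l) not called, and with upper-quartile scaling or library size alone both were called as higher in uterus. Tcf7, a DNA-binding partner, was at 5.18 ± 0.353 CPM in brain and 30.6 ± 5.50 CPM in uterus (2.56 ± 0.14, adjusted p = 3e-08, edgeR). Pygo1, a coactivator, was at 65.4 ± 4.18 and 29.9 ± 2.59 CPM (-1.13 ± 0.07, adjusted p = 1.52e-07, edgeR).

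Known repressors of Cdh1 and a list of epithelial factors were both mostly higher in uterus. Of 5 repressors of Cdh1, 4 were higher in uterus and 1 higher in brain, with a median of 3.66. Snai2 was at 0.682 ± 0.117 CPM in brain and 36.9 ± 8.18 CPM in uterus (5.75 ± 0.20, adjusted p = 1.1e-09, edgeR). Zeb2 was higher in brain, at 149.9 ± 10.4 and 89.5 ± 6.21 CPM (-0.74 ± 0.07, adjusted p = 2.12e-06, edgeR). Of 8 factors that promote epithelial expression or splicing, 5 were higher in uterus, 2 higher in brain and 1 (Ovol2) not called, with a median of 7.04. The splicing factor Esrp1 was at 0.0701 ± 0.0609 CPM in brain and 36.8 ± 6.91 CPM in uterus (8.93 ± 0.32, adjusted p = 1.26e-09, edgeR). Grhl3 had 184 brain counts and none in uterus, so that it was at least 60.8-fold higher in brain (adjusted p = 2.21e-05, edgeR).

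Enzymes that cut or dephosphorylate cadherin complexes were split, with 4 of 7 higher in uterus, 3 higher in brain and a median of 0.29. Ptprb, the endothelial phosphatase that associates with Cdh5, was at 55.6 ± 5.49 CPM in brain and 128 ± 3.46 CPM in uterus (1.21 ± 0.07, adjusted p = 6.36e-08, edgeR). Ptprj was at 132 ± 23.1 and 38.7 ± 0.860 CPM (-1.77 ± 0.12, adjusted p = 1.6e-07, edgeR).

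**Figure D5:**
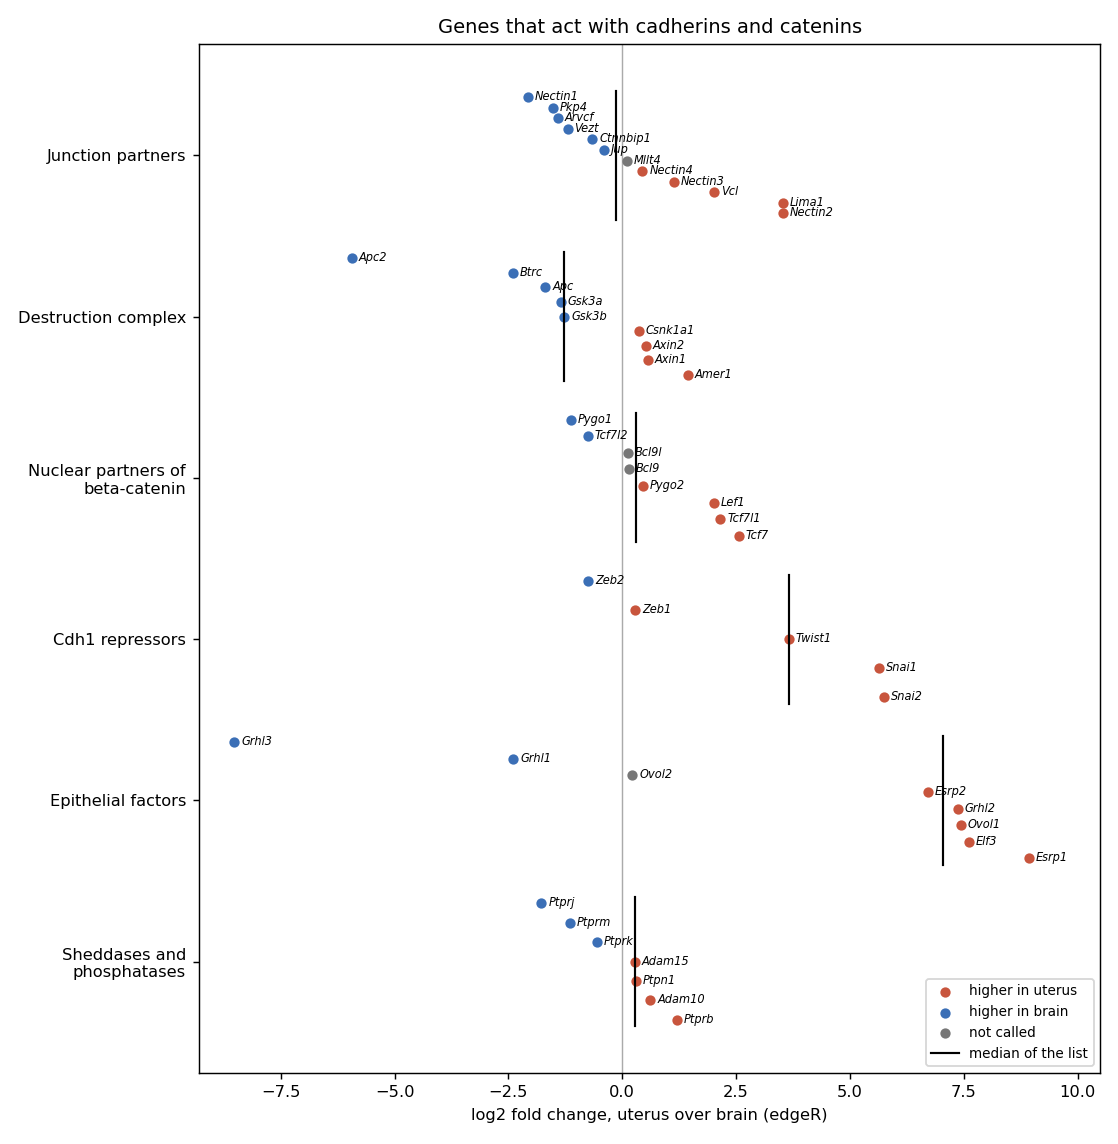
Log2 fold change of uterus over brain for each gene of the 6 pathway lists, 1 point per gene, in red where higher in uterus, blue where higher in brain and grey where not called, with a black line at the median of each list. Esrp1 at 8.93 lies far to the right and Apc2 at -5.94 far to the left, and Grhl3, which had no uterus count, is drawn at a fitted value that is no bound.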

How the data were processed

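Total RNA of 4 whole brains and 4 whole uteri was sequenced with a stranded kit that removes ribosomal RNA, per the labels' protocols. The authors deposited raw counts per Ensembl gene, whole numbers with no normalization. Per the submitters' processing notes, FastQC, HISAT2 2.0.3, featureCounts and edgeR were used on GRCm38.p5. No annotation release, strand setting or rule for reads with several matches was given in the sources used here, so overlapping genes cannot be told apart.

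The members, lists and naming rule were chosen with earlier results of these data known. Genes passing filterByExpr by organ (16074) were fitted with edgeR 4.0.16 (R 4.3.3; TMM scaling, factors 0.907 to 1.11; glmQLFTest, and glmTreat against 2-fold), two-sided, with Benjamini-Hochberg adjustment over all of them at 0.05. Intervals for uncalled genes came from limma 3.58.1. SE was taken as the log2 fold change over the root of F. TPM used union exon lengths of GENCODE M21 on GRCm38, found for 19808 of 19884 identifiers. Overlaps came from that annotation, and near-identical transcripts from BLAST+ 2.17.0 (98% identity over at least 150 nt). Shares and ratios were tested by exact permutation of the 8 libraries (scipy 1.17.1). The procedure was tested on simulated counts.

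Named with a value in every library were catenins, members averaging 10 CPM or more in an organ, and uncalled members. From each companion list the called gene at 1 CPM or more with the largest change in each direction was named. Epcam, the genes of the olfactory bulb list, Ckm, Myod1, Myf5 and Ulk4 were added after values were seen. Results were recomputed with other scalings (RLE, upper-quartile, library size), other filters, a block for replicate number, DESeq2 1.42.0, limma-voom, a threshold of 0.01, other lengths, and leaving out each library. Libraries of an organ came from different mice, per the labels' protocols, which do not state whether equal numbers in the organs stand for 1 animal.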

Additional observations from a re-analysis of the deposited data

Results flagged for a closer look

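Of 72 sets of 4 libraries examined (each member with enough counts, and each share or ratio, in each organ), 7 had a library far from the other 3, by a limit that about 5% of such sets pass by chance. In brain, Ctnnd2 was at 187 CPM in library 1 and 204.6 to 205.0 CPM in the others, and the ratio of Ctnnd1 plus Ctnnd2 to type I and II cadherins was 0.197 in the same library and 0.215 to 0.218 in the others. Cdh5 was at 17.7 CPM in brain library 4 and 19.9 to 20.2 CPM in the others. Cdh26 was at 0.577 CPM in brain library 3 and 0.405 to 0.426 CPM in the others. In uterus, Cdh2 was at 7.25 CPM in library 4 and 9.84 to 10.3 CPM in the others. The share of Cdh5 in the type II cadherins was 54.9% in uterus library 4 and 56.5% to 56.8% in the others. The share of Cdh11 was 37.7% in uterus library 3 and 39.1% to 39.3% in the others.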

How the results depend on the processing

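Between 28 and 31 members were called under the alternative scalings, filters, tools, threshold and omitted libraries, against 30 in the reported fit, and the 8 calls higher in uterus became 9 with upper-quartile scaling or library size alone, and 10 with DESeq2 or without the filter, which tested all 35 members. Calls over all genes were split 6988 higher in uterus to 7001 higher in brain as reported, 6628 to 6505 with the filter at 1 CPM, 8182 to 5966 with upper-quartile scaling and 8179 to 5949 with library size alone. Members called were more often higher in brain in each of these. The shares within classes kept their direction under the other lengths tried, as did the ratio for delta-catenins, but not the ratio of Ctnnb1 to type I and II cadherins, whose difference was -0.0998 as reported, -0.0117 in counts without a length term and 0.0593, the opposite sign, per kilobase of the longest transcript. The cause was not tested. Of single genes, Cdhr4 lost its call under 12 alternatives (log2 -0.66 to -0.34), Ctnna3 under 6 (-0.73 to -0.52), and Cdh24 gained one under 2. Leaving out each library in turn gave 28 to 30 called members, and 26 past 2-fold each time. The difference in the Ctnnb1 ratio then ran from -0.116 to -0.0875. Same-numbered libraries of the organs had deviations that correlated at -0.124, -0.0448, 0.125 and 0.0985, and libraries 3 and 4 but not 1 and 2 correlated best with their own number. Libraries of unlike number correlated at -0.138 to 0.194, so these values cannot decide whether equal numbers are pairs. Whether the organs share animals is not known. A block for replicate number called 29 members and 13846 of all genes, against 13989 without it. Depth limits members near 3 counts in uterus, whose folds rest on few reads.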

Other observations

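Each of the 3 alpha-catenin genes of the classical kind holds a gene for a leucine-rich repeat protein of synapses on its opposite strand. Lrrtm2, inside Ctnna1, was at 100.2, 98.4, 97.5 and 105 CPM in brain and 0.931, 1.72, 2.46 and 3.92 CPM in uterus (-5.46 ± 0.30, adjusted p = 3.75e-08, edgeR), so it was higher in brain while its host Ctnna1 was higher in uterus. The exons of the pair overlap by 95 nt. Lrrtm1, inside Ctnna2, was at 54.6 ± 2.56 CPM in brain and 1.08 ± 0.373 CPM in uterus (SD, n = 4, -5.65 ± 0.18, adjusted p = 5.47e-10, edgeR). Lrrtm3, inside Ctnna3, was at 56.02 ± 3.32 and 0.104 ± 0.0580 CPM (-9.04 ± 0.18, adjusted p = 2.73e-11, edgeR), a larger difference than that of its host at -0.77 ± 0.28 (adjusted p = 0.0265, edgeR). Neither Lrrtm1 nor Lrrtm3 shares exon bases with its host. In uterus, Lrrtm2 was lowest in library 1 and highest in library 4, the libraries where the summed neuronal level was lowest (2.19 CPM) and highest (4.85 CPM). Not all genes of that sum followed it, since Rbfox3 was lowest in library 4 (0.932 CPM) and Nefl highest in library 3 (0.152 CPM). The relation of Lrrtm2 to the sum was not tested.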
